A study of Mus musculus with 8 samples.

Results

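Transcription factors that set arterial, venous, lymphatic and general endothelial identity were followed through the whole series. The 10 genes, chosen by symbol, were Sox7, Sox17, Sox18, Nr2f2, Erg, Fli1, Ets1, Mecom, Gata2 and Meis2. All 10 were found among the 30406 gene identifiers that the feature lists of both sequencing runs hold, and each was read in all 8 libraries. Fate in the endothelium is set by combinations of such factors. SoxF proteins (Sox7, Sox17, Sox18) act downstream of VEGF and with Notch, Nr2f2 (COUP-TFII) represses Notch signalling in veins and works with Prox1 in lymphatic vessels, and ETS proteins occupy the enhancers of most endothelial genes in every type of vessel. In adipose tissue and in the mesentery these vessels carry absorbed lipid, and the lymphatic vessels of the mesentery drain the gut.

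The cells came from male ROSA26-eYFP+/+ Cdh5-CreERT2+ mice, which make YFP after Cre is activated in cells with an active Cdh5 promoter. All groups, chow groups included, carried both alleles and ate tamoxifen diet for 2 weeks from 6 weeks of age. At 8 weeks they were given either chow with 5.8% fat or food with 60% fat, for 12 to 13 weeks. Mesentery or epididymal fat of 6 mice was pooled for each library, dissociated with actinomycin D present and sorted. These cells were profiled with 10x 3' chemistry, and each of the 4 groups (mesentery chow, mesentery high fat, adipose chow, adipose high fat) has 1 library in run A and 1 in run B. A group therefore has n = 2 pools. In fits without a block for the run, p-values measure the spread between pools of a group. With the run as a block, they measure the spread left after the run difference is taken out. Either spread is shared over the 4 groups.

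Run A libraries held 3461360 to 6714473 UMIs and run B libraries 18829960 to 36779289. Any pair of libraries shared at most 10 cell barcodes. After filters and the removal of called doublets, 23113 cells formed 27 clusters, and clusters were named from marker genes that exclude the 10 factors. The 10 factors were also left out of the genes used for clustering, but class against class is still a description and was given no test. Endothelial markers (11 genes, Pecam1 and Cdh5 among them) summed to 10606 to 12916 CPM (UMI counts scaled to a common total) in arterial-like cells and to 5714 to 7995 in lymphatic-like cells. Capillary-like cells of run A numbered only 28 to 136 per library, against 825 to 2109 in run B, so capillary values of run A rest on few counts. The clusters inside a class took different shares in the groups: in venous-like cells, cluster 8 (Adgrg6, Selp, Sele) held 66.8 to 78.1% on mesentery chow and 2.4 to 5.8% in the 4 adipose libraries, while cluster 16 (Slco1a4, Bmp4, Vwf) held 11.8 to 54.5% in adipose and at most 2.4% in mesentery. In capillary-like cells cluster 1 held 96.6% in adipose high fat B and 16.6% in adipose chow B, with cluster 2 the rest. Run A went the other way, with 30.1% in adipose high fat A and 83.0% in adipose chow A (136 and 88 cells). T cell-like and B cell-like cells had passed the sort as well and serve below as a measure of free RNA.

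Levels are given in CPM from UMIs summed over the cells of a class in a library. Sox17, a SoxF factor known for arterial fate, had the steepest order of the SoxF genes. In arterial-like cells the lowest, median and highest of the 8 libraries were 357, 466 and 636 CPM, and in capillary-like cells 153, 277 and 504 CPM. Venous-like cells had 39.2, 71.5 and 119 CPM, and lymphatic-like cells 0.728, 2.91 and 9.54 CPM from 25 UMIs in all. Arterial and capillary ranges overlapped, and neither touched the venous range, which in turn lay above the lymphatic one. The order of arterial and capillary depended on the run: arterial-like cells averaged 413 CPM and capillary-like cells 429 CPM in run A, and 530 and 201 CPM in run B. T cell-like cells had 2.26 CPM ± 2.58 (SD, n = 7), so the lymphatic level was near that of free RNA.

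Sox18, mutated in inherited lymphatic defects, was read in all 4 classes. Its mean was 406 CPM ± 379.5 (SD, n = 8) in arterial-like cells and 371 CPM ± 292 in capillary-like cells. Venous-like cells had 211 CPM ± 201 and lymphatic-like cells 206 CPM ± 177. Arterial and capillary levels exceeded the venous one in 8 of 8 libraries each, whereas venous and lymphatic levels did not differ beyond their spread (venous higher in 4 of 8). Sox7, the remaining SoxF gene, had 88.8 ± 47.6 CPM in arterial-like, 80.0 ± 24.1 CPM in capillary-like, 74.1 ± 26.4 CPM in venous-like and 28.9 ± 11.4 CPM in lymphatic-like cells. Its 3 blood vascular levels did not differ beyond their spread, and each exceeded the lymphatic level in 8 of 8 libraries.

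Mecom, which encodes the zinc finger factor EVI1, was read in blood vessels and hardly at all in lymphatic-like cells. The lowest, median and highest libraries had 171, 454 and 699 CPM in arterial-like cells. Capillary-like cells had 117, 184 and 347 CPM, and venous-like cells 92.2, 182 and 350 CPM. In lymphatic-like cells the 8 libraries gave 19 UMIs in all, 0.0 to 5.81 CPM, next to 2.96 CPM ± 4.18 (SD, n = 7) in T cell-like cells. Capillary and venous levels did not differ beyond their spread, and both ranges lay clear of the lymphatic one. Gata2, a GATA factor known from haematopoietic cells and lymphatic valves, was highest in arterial-like cells with 149 CPM ± 39.6 (SD, n = 8), above capillary-like cells (76.3 ± 15.2 CPM) in 8 of 8 libraries with no overlap. Venous-like cells had 66.6 ± 24.7 CPM and lymphatic-like cells 63.0 ± 16.7 CPM, and these lower 3 classes could not be put in order.

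Nr2f2, the venous and lymphatic factor, ran the opposite way. The lowest, median and highest libraries had 346, 529 and 713 CPM in lymphatic-like cells and 145, 288 and 499 CPM in venous-like cells. Capillary-like cells had 13.6, 48.5 and 94.1 CPM, and arterial-like cells 3.93, 10.8 and 28.2 CPM. Lymphatic exceeded venous, venous exceeded capillary and capillary exceeded arterial in 8 of 8 libraries at each step, and the venous range did not touch the capillary one. The arterial level was close to that of T cell-like cells (11 CPM ± 23.6, SD, n = 7), while fibroblast-like cells had 641 CPM ± 435 (SD, n = 8). Meis2, a TALE homeobox cofactor of Hox and Pbx proteins, shared the upper end of that order: 154 ± 44.5 CPM in lymphatic-like, 114 ± 49.3 in venous-like, 61.3 ± 48.9 in arterial-like and 38.5 ± 46.4 CPM in capillary-like cells (SD, n = 8). Lymphatic and venous levels did not differ beyond their spread, nor did arterial and capillary levels. The capillary value came mainly from run A (38.9 to 139.8 CPM from 2 to 14 UMIs a library), while run B had 1.24 to 14.0 CPM.

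The start regions of Nr2f2 and Meis2, both highest in lymphatic-like cells, and of Mecom, lowest there, are given here as context for the loci, from RefSeq (GRCm38.p6), 250 bases before to 50 bases after a listed start. The 3' counts analysed here carry no signal at these regions. Motif searches covered both strands for the ETS core GGAAG, the SOX core ACAAT, the motif AGATAA of Gata factors, the MEIS motif TGACAG and the motif AGGTCA of nuclear receptors such as COUP-TFII, and capitals mark the matches, of which none overlapped.
Nr2f2, chr7:70366697-70366996, minus strand: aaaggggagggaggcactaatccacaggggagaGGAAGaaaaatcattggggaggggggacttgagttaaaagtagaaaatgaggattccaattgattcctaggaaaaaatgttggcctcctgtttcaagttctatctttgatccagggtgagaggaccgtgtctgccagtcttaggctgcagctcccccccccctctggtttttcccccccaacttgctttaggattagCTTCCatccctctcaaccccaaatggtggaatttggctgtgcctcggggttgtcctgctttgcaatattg
Meis2, chr2:116064570-116064869, minus strand: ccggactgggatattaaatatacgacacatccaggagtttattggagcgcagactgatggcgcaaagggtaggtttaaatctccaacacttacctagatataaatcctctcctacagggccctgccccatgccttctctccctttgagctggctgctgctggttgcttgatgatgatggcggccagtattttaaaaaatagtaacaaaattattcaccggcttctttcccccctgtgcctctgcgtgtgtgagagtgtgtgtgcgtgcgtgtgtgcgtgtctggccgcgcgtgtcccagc
Mecom, chr3:30013155-30013454, minus strand: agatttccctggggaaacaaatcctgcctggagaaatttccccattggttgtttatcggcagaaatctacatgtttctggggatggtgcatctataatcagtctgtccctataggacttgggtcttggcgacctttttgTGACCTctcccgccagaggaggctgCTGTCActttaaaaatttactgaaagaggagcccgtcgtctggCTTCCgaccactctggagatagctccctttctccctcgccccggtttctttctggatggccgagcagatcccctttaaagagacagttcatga
The Nr2f2 window held 2 ETS core matches and the Meis2 window no match to any of the 5 motifs. The Mecom window, the more downstream of 2 listed starts, held 1 match each to the ETS, MEIS and AGGTCA motifs, and the other Mecom start held none. Of 32851 mouse start regions of this length, 71.4% held the ETS core, 31.0% the SOX core, 11.2% AGATAA, 19.2% TGACAG and 16.3% AGGTCA. A match is a string of letters and not a measured binding site. RefSeq start regions were matched for 5 of the 10 genes.

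The ETS factor Erg, needed to hold endothelial identity, had class means of only 77.6 CPM (arterial-like and lymphatic-like) to 91.1 CPM (capillary-like), with SDs of 47.6 to 54.4 CPM (n = 8), and no 2 of the 4 classes differed beyond their spread. Fli1, its close relative, was higher in capillary-like cells (341 ± 172 CPM) and venous-like cells (271 ± 154 CPM) than in arterial-like (172 ± 122 CPM) and lymphatic-like cells (138 ± 65.9 CPM), in 8 of 8 libraries for each of the 4 pairs. Ets1, shared with lymphocytes, had 415 ± 75.0 CPM in capillary-like cells, above each other class in 8 of 8 libraries, and 235 ± 84.3, 233 ± 43.4 and 175 ± 44.8 CPM in arterial-like, lymphatic-like and venous-like cells. T cell-like cells (480 CPM ± 89.0, n = 7) and B cell-like cells (379 CPM ± 57.3, n = 4) carried Ets1 at levels like those of capillary-like cells. Outside the endothelium Erg had 3.04 CPM in T cell-like, 4.39 CPM in macrophage-like and 1.90 CPM in fibroblast-like cells. Adipocyte-like cells had 25.6 CPM in mesentery chow B and 67.0 CPM in adipose chow B (25 and 61 UMIs). All endothelial cells of the same 2 libraries had 114 and 147 CPM. Endothelial markers summed to 2208 to 2727 CPM in these adipocyte-like cells. Fli1 lies at chr9:32422204-32542861 and Ets1 at chr9:32636221-32757820 (mm10, GENCODE vM21), next to each other. Fli1, Ets1 and Mecom each overlap 1 counted gene on the opposite strand (Gm27201, Gm27240 and Mecomos), and none of the sources says whether the authors' counting used strand.

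**Figure D1:**
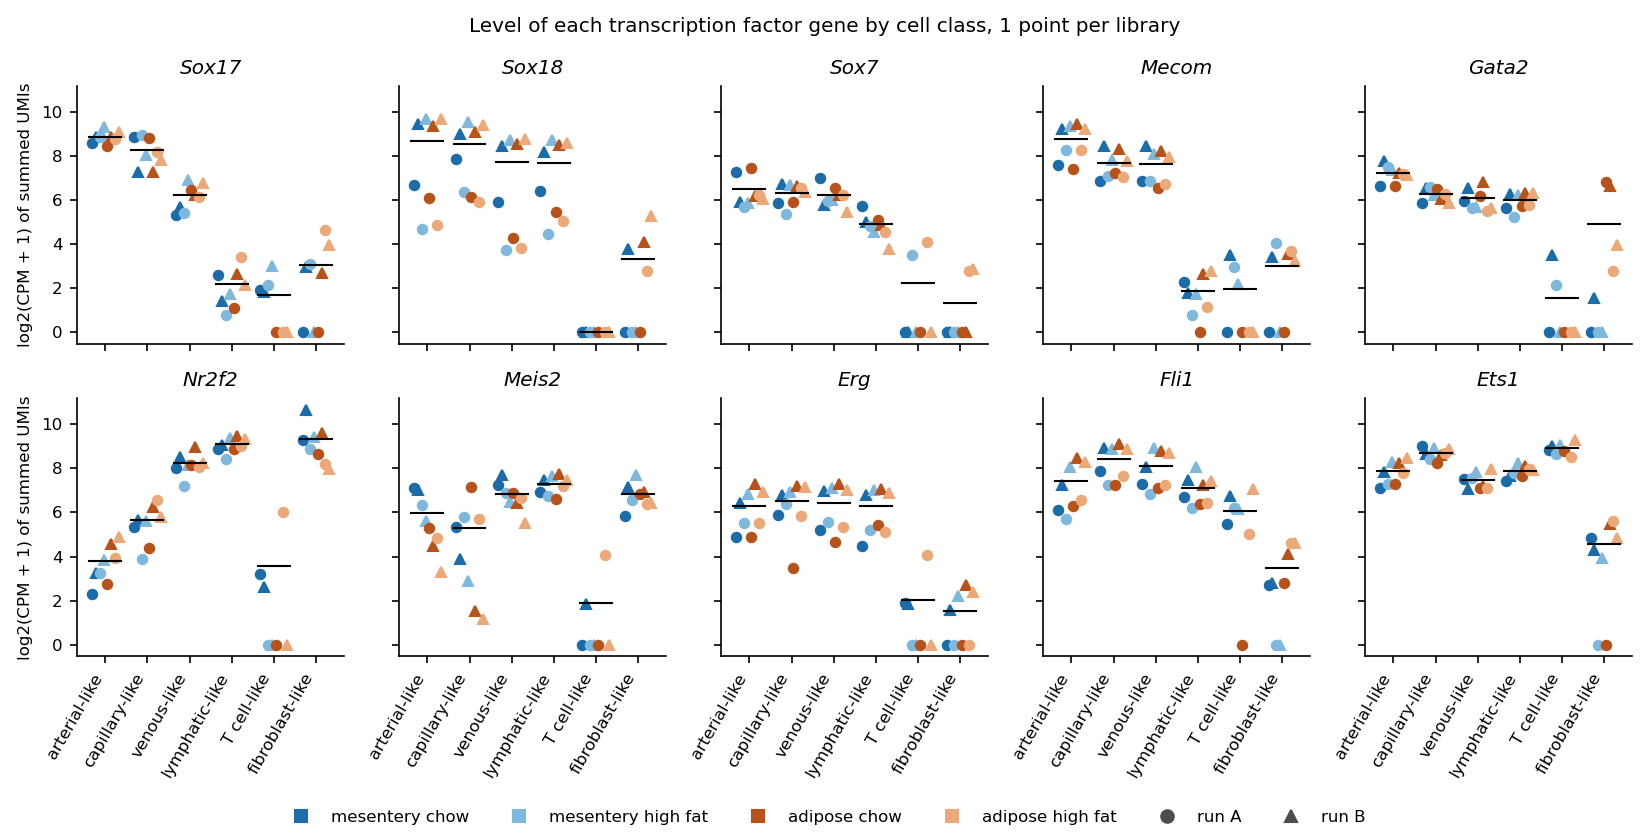
Level of each factor gene by cell class on a log2(CPM + 1) scale, with 1 point per library of at least 20 cells (colour for the group, circles for run A, triangles for run B) and a line at the mean. Sox17 and Mecom drop from arterial-like to lymphatic-like cells, Nr2f2 climbs from 13.0 CPM in arterial-like to 548 CPM in lymphatic-like cells, and Erg is level across the 4 endothelial classes.

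Shares of cells with a UMI gave the same orders for Sox17, Mecom and Nr2f2. Each cell was thinned to 1000 UMIs, which left out 194 arterial-like, 158 capillary-like, 236 venous-like and 287 lymphatic-like cells below that depth. Sox17 was then found in 37.3% of arterial-like, 26.1% of capillary-like, 6.48% of venous-like and 0.54% of lymphatic-like cells (means of 8 libraries), next to 0.19% of T cell-like cells (mean of 6 libraries). Before thinning these shares were 66.9, 45.2, 21.4, 1.11 and 1.21%. Nr2f2 was found in 0.97, 3.53, 23.7 and 37.7% of the same 4 classes and in 0.22% of T cell-like cells (4.07, 12.7, 54.9, 65.1 and 2.13% unthinned). Mecom was found in 0 of 2166 thinned lymphatic-like cells, which at this depth allows up to 0.139% of cells with a UMI (counting error only) and sets no limit on cells that express the gene. It was found in 32.3% of arterial-like cells, and the unthinned shares were 0.86% in lymphatic-like and 62.6% in arterial-like cells. Median depth before thinning was 1618.5 to 5128 UMIs in arterial-like and 1636 to 5249 UMIs in T cell-like cells.

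Inside a class the factors separated clusters of cells. The 2 arterial-like clusters differed most in Meis2, Ets1 and Nr2f2 over the 7 libraries with at least 20 cells of both. Meis2 was higher in cluster 9, which is led by Igf2, Gkn3, Klk10 and Mgp, with 118 CPM ± 59.7 (SD, n = 7) against 31.1 CPM ± 21.6 in cluster 3, in 7 of 7 libraries. Ets1 was lower there (108 ± 17.1 against 299 ± 96.0 CPM), as was Sox17 (393 ± 84.2 against 521 ± 91.1 CPM), each in 7 of 7 libraries. Nr2f2 was at 3.46 ± 4.6 CPM in cluster 9 and 17.7 ± 8.63 CPM in cluster 3. In lymphatic-like cells, Gata2 marked cluster 12 (Nts, Foxp2, Cldn11) with 139 CPM ± 42.1 (SD, n = 8), against 36.2 CPM ± 9.19 in cluster 5 (Reln, Ccl21a, Lyve1), and the ranges did not overlap. Nr2f2 went the other way, 340 ± 119 CPM in cluster 12 and 637 ± 158 CPM in cluster 5, in 8 of 8 libraries. In venous-like cells Meis2 was higher in cluster 8 than in cluster 6 in 6 of 6 libraries (237 ± 53.8 against 66.9 ± 45.6 CPM).

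Among endothelial clusters with no class name, cluster 14 had the highest Meis2 level of all, with 541 and 792 CPM in the mesentery chow libraries and 510 CPM in mesentery high fat A. Its leading genes were Marco, Bmp2, Coch and Clec4g, and none of its 567 cells came from adipose tissue. In the same 3 libraries Nr2f2 averaged 462 CPM ± 116 (SD, n = 3), Sox17 0.66 ± 1.14 CPM, Mecom 15.4 ± 7.47 CPM and Fli1 59.4 ± 17.8 CPM. Erg stood at 79.5 ± 63.7 CPM, near its level in the named classes. Cluster 24, led by Prnd, Apln and Pgf and taken from the 3 run B libraries with at least 20 of its cells, had Sox7 at 152 ± 36.0 CPM, Sox18 at 587 ± 34.2 CPM and Erg at 163 ± 34.0 CPM (SD, n = 3), with Meis2 at 1.64 ± 1.66 CPM and Gata2 at 16.5 ± 4.87 CPM. These values are of run B only, in which Sox18 and Erg were higher in each named class. Single libraries of other clusters reached more Sox7 (206 CPM in cluster 9), Sox18 (882 CPM in cluster 9) and Erg (207 CPM in cluster 2).

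**Figure D2:**
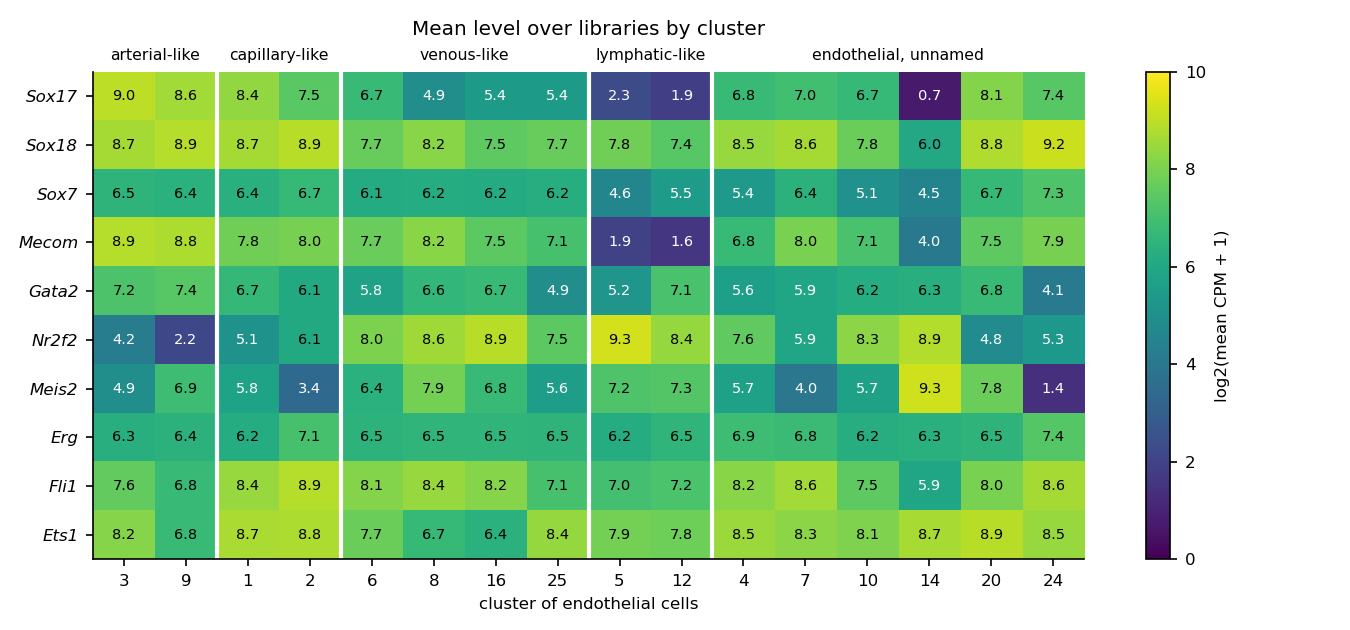
Mean CPM over libraries with at least 20 cells, as log2(mean CPM + 1), for each factor (rows) in each endothelial cluster (columns, grouped by class). Meis2 separates clusters 3 and 9, clusters 6 and 8, and peaks in cluster 14, where Sox17 is near 0, while Gata2 separates lymphatic-like clusters 5 and 12.

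Runs A and B differed by more than the groups did for several factors. Sox18 had 25.2 to 102 CPM in arterial-like cells in run A and 664 to 837 CPM in run B, and it was higher in run B in all 4 groups of each class. Erg and Fli1 were likewise higher in run B in all 4 groups of each class. Mecom was higher in run B in all 4 groups of arterial-like, capillary-like and venous-like cells. Its arterial-like range was 171 to 312 CPM in run A and 596 to 699 CPM in run B. In arterial-like cells Erg had a mean of 37.1 CPM in run A and 118 CPM in run B, and Fli1 72.9 and 272 CPM. Sox7 did not share this shift, with 113 and 64.4 CPM. Headers of the matrices name software version 3.0.2 in run A and 5.0.0 in run B, the gene lists differ, and the part of mice, depth and counting in this gap cannot be told apart. Under high fat feeding Sox18 went opposite ways in the 2 runs: lower in 4 of 4 classes in run A and higher in 4 of 4 classes in run B, in mesentery and in adipose tissue alike. In arterial-like cells of the mesentery it was 102 CPM on chow and 25.2 CPM on high fat in run A (78 and 9 UMIs), and 710 and 837 CPM in run B (2094 and 2351 UMIs). In venous-like cells of the mesentery the values were 58.6 and 12.3 CPM in run A and 353 and 431 CPM in run B.

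**Figure D3:**
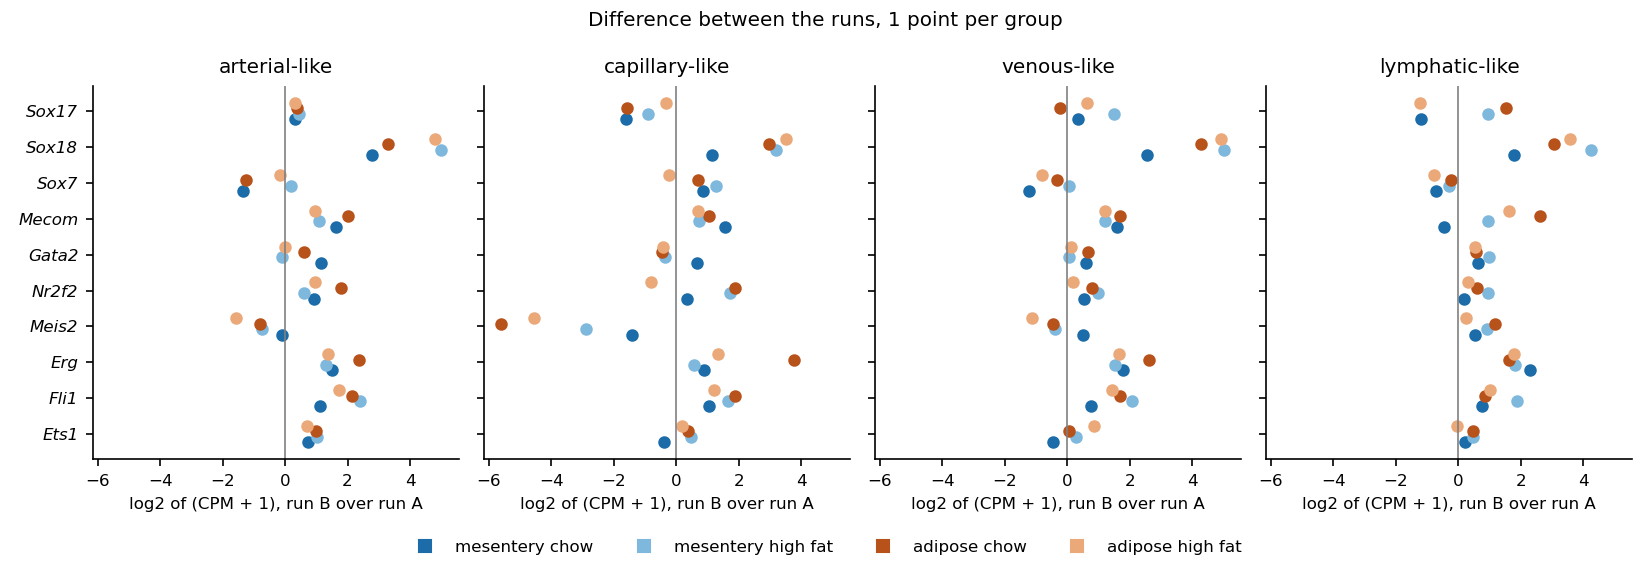
Run B over run A for each factor, as log2 of the ratio of (CPM + 1), with 1 point per group (colour) and 1 panel per endothelial class. Sox18, Erg and Fli1 lie right of 0 in each group and class, while Meis2 lies left of 0 in arterial-like and capillary-like and right of 0 in lymphatic-like cells.

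High fat feeding was compared with chow in each tissue and class across all genes, and calls were made at an adjusted p (Benjamini-Hochberg) under 0.05. With edgeR's quasi-likelihood test and no block for the run, no factor was called in any of the 20 comparisons (4 classes with 2 diet contrasts, 2 tissue contrasts and the interaction), and neither was any other gene (0.0% of 8802 to 10627 genes tested). Unadjusted p fell under 0.05 for 3 to 334 genes per comparison and for 3 of 190 factor tests. DESeq2 without the block called 0 to 53 genes and no factor. The runs repeat the whole experiment, so the run was also fitted as a block, and these values are given beside the others. All 10 factors were tested in arterial-like, capillary-like and venous-like cells, and 8 in lymphatic-like cells, where Sox17 and Mecom were too low to pass the filter.

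In the mesentery, the diet comparison of the block fit (edgeR) called 2.99% of genes in arterial-like, 0.791% in capillary-like, 0.32% in venous-like and 2.64% in lymphatic-like cells. Meis2 in arterial-like cells was the only factor called. For diet in adipose tissue these shares were 0.214, 1.26, 0.0941 and 0.0568%, and no factor was called (3 factor and class pairs had an unadjusted p under 0.05 with edgeR, and DESeq2 with the block called none). The median log2 change of the tested factors was between -0.21 and 0.28 in these 8 comparisons, and that of all genes between -0.01 and 0.02. Factors with an unadjusted p under 0.05 that were not called included Sox17 in venous-like cells of the mesentery, with 39.2 and 50.3 CPM on chow and 41.7 and 119 CPM on high fat in runs A and B (log2 change 0.93 ± 0.32 SE, edgeR adjusted p = 0.411). Run A differed little, and the groups overlapped. Gata2 in venous-like cells had 71.7 and 113 CPM in adipose chow and 45.2 and 49.2 CPM in adipose high fat libraries, with no overlap (log2 change -0.95 ± 0.26 SE, edgeR adjusted p = 0.515). Its mesenteric venous-like values, 61.0 and 92.9 CPM on chow and 49.0 and 50.5 CPM on high fat, had the same direction (-0.62 ± 0.26 SE, adjusted p = 0.654 with edgeR). Cluster 8 fell from 78.1 and 66.8% of mesenteric venous-like cells on chow to 47.1 and 20.7% on high fat. It had more Gata2 than cluster 6 (97.5 against 56.2 CPM, 5 of 6 libraries) and less Sox17 (29.8 against 94.2 CPM, 6 of 6). In adipose tissue cluster 16 went from 54.5 and 43.5% to 44.1 and 11.8%. Gata2 averaged 106 CPM there against 46.1 CPM in cluster 6 (higher in 3 of 4 libraries). The part of these shares in the Gata2 and Sox17 changes was not tested. Sox7 in arterial-like cells of the mesentery read 154 and 60.3 CPM on chow and 50.4 and 57.7 CPM on high fat (-0.69 ± 0.30 SE, edgeR adjusted p = 0.375), so the gap was that of run A.

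Mesentery was compared with adipose tissue in the same fits. On chow, edgeR with the block called 3.69% of genes in arterial-like, 0.254% in capillary-like, 1.91% in venous-like and 1.93% in lymphatic-like cells, and on high fat 0.155, 0.186, 0.226 and 0.273%. Meis2 in arterial-like cells was called on both diets and no other factor was called in any class. Nr2f2 in arterial-like cells had 3.93 and 8.47 CPM in mesentery chow and 5.81 and 22.4 CPM in adipose chow libraries, from 2 to 86 UMIs (log2 difference -1.23 ± 0.43 SE, edgeR adjusted p = 0.147). Fli1 there had 68.1 and 150 CPM in mesentery and 78.4 and 352 CPM in adipose tissue (-0.78 ± 0.27 SE, edgeR adjusted p = 0.131). Both were lower in mesentery within each run, and the groups overlapped. Cluster 9 made up 68.0 and 43.3% of arterial-like cells in mesentery chow and 22.4 and 20.4% in adipose chow. It had less Nr2f2 than cluster 3 in 7 of 7 libraries and less Fli1 in 5 of 7 (107 against 205 CPM). The part of this share in the 2 differences was not tested. For the interaction of tissue and diet the block fit called 0.00971% of genes in arterial-like, 0.0% in capillary-like and venous-like and 0.114% in lymphatic-like cells, and 0 factors. No factor had an unadjusted p under 0.05 there, and DESeq2 with and without the block called no factor either.

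**Figure D4:**
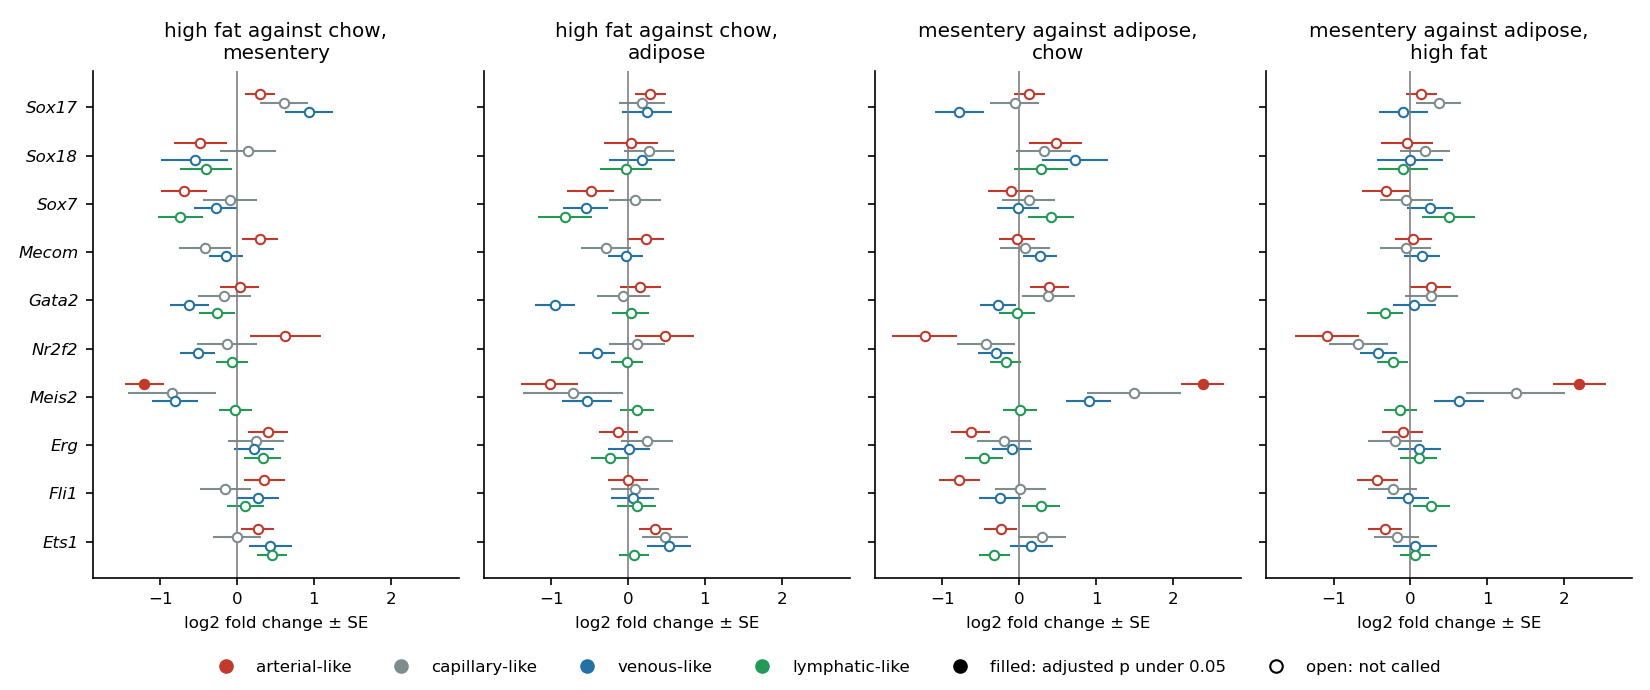
Log2 fold change ± SE of each factor from the edgeR fit with the run as a block, with 1 panel per comparison and 1 colour per class; filled points have an adjusted p under 0.05. Meis2 in arterial-like cells is the only filled gene, at -1.21 for diet in mesentery, 2.39 for tissue on chow and 2.20 for tissue on high fat.

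Meis2 (chr2:115863064-116065839, minus strand, mm10, with no overlapping gene in GENCODE vM21) set mesenteric arterial-like cells apart. It had 137 and 127 CPM in mesentery chow, 81.2 and 48.4 CPM in mesentery high fat, 37.7 and 21.4 CPM in adipose chow and 28.1 and 8.82 CPM in adipose high fat libraries (runs A and B). All 4 mesentery libraries lay above all 4 adipose libraries, and the 2 mesentery diets did not overlap. The exact 95% Poisson intervals, which cover counting error only, ran from 112 to 166 CPM in mesentery chow A (105 UMIs) and from 5.76 to 12.9 CPM in adipose high fat B (26 UMIs). Mesentery exceeded adipose tissue on chow by a log2 difference of 2.39 ± 0.28 SE (edgeR with the block, adjusted p = 1.4e-05), 3.64-fold in run A and 5.97-fold in run B. On high fat the difference was 2.20 ± 0.35 SE (edgeR with the block, adjusted p = 0.00224), 2.89-fold and 5.49-fold. High fat feeding went with a fall of Meis2 in the mesentery, with a log2 change of -1.21 ± 0.26 SE (edgeR with the block, adjusted p = 0.00933). In adipose tissue the change was -1.02 and was not called, and the interaction of -0.19 ± 0.46 SE (edgeR with the block, adjusted p = 1.0) did not separate the tissues. Without the block the values were 2.34 ± 0.60, 2.11 ± 0.66 and -1.14 ± 0.56 SE, each with an edgeR adjusted p of 1.0, and DESeq2 with the block called both tissue differences (2.35 and 2.14) but not the diet change (-1.19, adjusted p = 0.0803). With neither block nor filter on low counts, edgeR called both tissue differences (adjusted p = 0.000323 and 0.0282).

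Single libraries decided some of these calls. With the block, the diet call was lost without mesentery chow B (-0.70 ± 0.34 SE, edgeR adjusted p = 0.521) or mesentery high fat B (-1.05 ± 0.42 SE, edgeR adjusted p = 0.664). The tissue call was lost on chow without adipose chow B (2.17, edgeR adjusted p = 0.124), and on high fat without mesentery high fat B (2.37, edgeR adjusted p = 0.224) or adipose high fat B (1.37, edgeR adjusted p = 0.779). No sign changed in these fits.

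The share of cluster 9, the arterial-like cluster with more Meis2, moved with the same groups. It made up 68.0 and 43.3% of arterial-like cells in mesentery chow, 27.2 and 12.4% in mesentery high fat, 22.4 and 20.4% in adipose chow and 13.1 and 11.6% in adipose high fat libraries. Each cluster was also fitted alone, a step chosen after seeing the data. The part of the cluster shares in the class values was not tested. In cluster 9 Meis2 had 164 and 187 CPM in mesentery chow, 130 and 173 CPM in mesentery high fat, 61.7 and 56.4 CPM in adipose chow and 68.3 (17 cells) and 51.7 CPM in adipose high fat libraries. The tissues did not overlap, whereas the diets differed little in either tissue. The tissue difference on chow was 1.74 ± 0.31 SE in cluster 9 (edgeR with the block, adjusted p = 0.000723) and 1.93 ± 0.44 SE in cluster 3 (adjusted p = 0.0325 with edgeR), so it was called within each cluster. In cluster 3 the run A libraries on chow did not differ (27.1 CPM from 4 UMIs in mesentery and 28.3 CPM from 7 UMIs in adipose tissue), and run B had 61.3 and 12.2 CPM. On high fat it was 1.58 ± 0.40 and 2.51 ± 0.54 SE (edgeR with the block, adjusted p = 0.057 and 0.0654). The diet change in mesentery was -0.25 ± 0.28 SE in cluster 9 and -0.77 ± 0.41 SE in cluster 3 (edgeR with the block, adjusted p = 0.999 and 1.0). The class as a whole had -1.21 ± 0.26 SE, and no test compared these estimates. Summed venous markers moved with the same groups in arterial-like cells, at 1630 and 758 CPM in mesentery chow, 826 and 373 CPM in mesentery high fat, 470 and 213 CPM in adipose chow and 305 and 318 CPM in adipose high fat libraries, and their part in the Meis2 values was not tested. Of the 9 venous markers, 0 to 3 were at 0 in a library. Markers of fibroblasts, whose class had 112 CPM of Meis2, summed to 6.5 to 20.3 CPM in mesentery and to 12.2 to 66.7 CPM in adipose libraries.

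**Figure D5:**
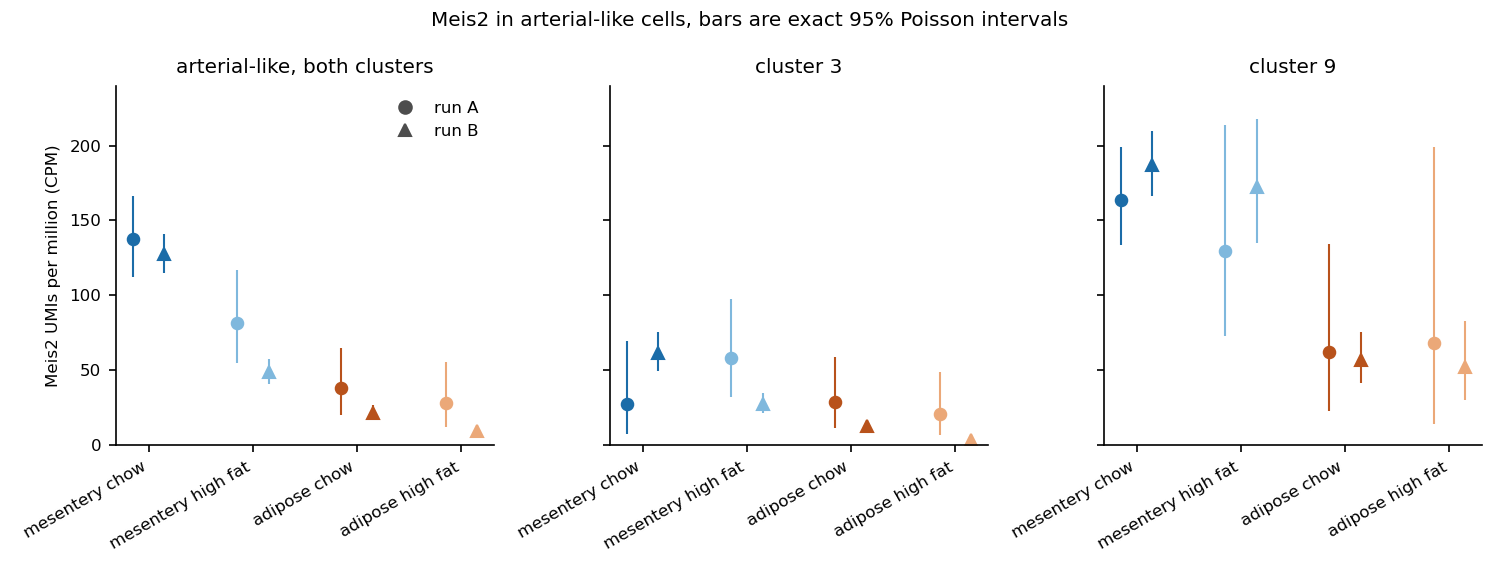
Meis2 in CPM by group in arterial-like cells, in cluster 3 and in cluster 9, with circles for run A, triangles for run B and exact 95% Poisson intervals. Both mesentery groups stand above both adipose groups in the class and in cluster 9, and the drop from chow to high fat in mesentery is larger in the class than in cluster 9.

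After thinning to 1000 UMIs, Meis2 was found in 12.8 and 10.8% of arterial-like cells in mesentery chow, 5.83 and 3.28% in mesentery high fat, 1.26 and 1.78% in adipose chow and 1.96 and 0.68% in adipose high fat libraries. Unthinned shares were 35.4, 32.6, 20.2, 13.6, 6.63, 6.81, 3.85 and 2.90% in the same order. T cell-like cells had 0 of 365 thinned, which at this depth allows up to 0.822% of cells with a UMI and limits no expression, and 0.66% unthinned. Mesentery stood above adipose tissue in each library on this measure too. Outside arterial-like cells Meis2 was not called: with the block its tissue difference on chow was 0.90 in venous-like, 1.5 in capillary-like and 0.01 in lymphatic-like cells. The capillary-like runs went opposite ways, with 38.9 CPM in mesentery and 139.8 CPM in adipose tissue in run A (2 and 14 UMIs), and 14.0 and 1.87 CPM in run B (48 and 27 UMIs). The venous-like libraries of mesentery chow had 149 and 210 CPM against 117 and 84.9 CPM in adipose chow, while the lymphatic-like ones overlapped (122 and 176 against 95.4 and 217 CPM). Cluster 8, with more Meis2 than cluster 6, held 78.1 and 66.8% of venous-like cells in mesentery chow. In adipose chow it held 2.4 and 5.0%. The part of this share in the venous-like gap was not tested.

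Further transcription factors and class genes gave a frame for these values. Without the block none of them was called in any comparison with edgeR. With the block, 37 of 40 other endothelial transcription factors were tested in arterial-like cells, and 3 were higher and 4 lower in mesentery on high fat. Over all genes 2.99% were called there, and the list was chosen with earlier results of these data known. Hey2, a Notch target of arteries, fell by 2.01 on the log2 scale (± 0.29 SE), Gata6 fell by 1.49 (± 0.23 SE) and Meox2 rose by 1.40 (± 0.29 SE). The tissue difference on chow also had 3 higher and 4 lower (3.69% of all genes were called). Hey2 was at 1.90 ± 0.28 SE, Tcf15 at -1.34 ± 0.26 SE and Ets2 at -1.21 ± 0.25 SE. Cluster 9 held 68.0 and 43.3% of arterial-like cells in mesentery chow and 27.2 and 12.4% in mesentery high fat libraries. In adipose chow it held 22.4 and 20.4%. The part of this share in the diet and tissue differences of these factors was not tested. No gene of this list was called in arterial-like cells for diet in adipose tissue, tissue on high fat or the interaction. Foxf1 was the one called in capillary-like cells, higher in mesentery by 3.45 ± 0.75 SE on chow and 3.54 ± 0.71 SE on high fat. In venous-like cells Gata3 (-3.30 ± 0.60 SE) and Foxc2 (-1.68 ± 0.31 SE) were lower and Foxf1 (1.54 ± 0.35 SE) higher in mesentery on chow. The clusters differed there: cluster 8 held 78.1 and 66.8% in mesentery chow and 2.4 and 5.0% in adipose chow. Cluster 16 held 0.3 and 0.4% against 54.5 and 43.5%. Cluster 25 (Glycam1, Madcam1) held 6.8 and 7.8% against 0.0%. The part of this mix in the 3 differences was not tested. In lymphatic-like cells 34 were tested, and Sox4 (1.78 ± 0.25 SE) and Nfatc1 (1.13 ± 0.22 SE), a factor of lymphatic valves, rose with high fat in mesentery.

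Of 20 arterial programme genes that were not used as markers, all 20 were tested in arterial-like cells, and 4 were higher and 4 lower with high fat in mesentery. Mgp, a matrix inhibitor of BMPs, fell by 2.10 (± 0.28 SE), Bgn fell by 1.38 (± 0.23 SE) and Cxcl12 rose by 1.64 (± 0.28 SE). On chow 2 were higher in mesentery (Mgp 2.02 ± 0.28 SE, Bgn 1.37 ± 0.23 SE) and 3 lower, Cxcl12 among them (-1.37 ± 0.29 SE). Of 20 venous and lymphatic programme genes, 15 were tested there, and 3 were higher and 3 lower in each of these 2 comparisons. Tmem252 led with high fat in mesentery (2.40 ± 0.26 SE) and Icam1 for tissue on chow (1.76 ± 0.26 SE). Over all genes of arterial-like cells, 2.99% were called for diet in mesentery and 3.69% for tissue on chow. The median log2 change of the 15 tested genes of the venous and lymphatic list was -0.51 for diet in mesentery and 0.62 for tissue on chow. Over all genes it was -0.01 and 0.01. The lists were chosen with earlier results of these data known, so their counts and medians only describe and show no shift of a programme. Mgp leads cluster 9, whose share moved with the same groups, and the part of that share in these changes was not tested.

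Genes whose pattern was most like that of a factor were ranked by the Pearson correlation of log2(CPM + 1), centred in each library, over 32 points (4 classes in 8 libraries) among 6435 genes with a mean of at least 20 CPM. The points share libraries and depth, so the values only describe. Nearest to Sox17 were Ly6c1 (0.98), Ptprg (0.972) and Luzp1 (0.966), and nearest to Mecom were Ly6a (0.989), Srgn (0.981) and Adam15 (0.978). Rab3il1 (0.955), Fam174b (0.947) and Sntb2 (0.943) were nearest to Nr2f2, and Prss23 (0.915), Cpq (0.875) and Ptpn14 (0.875) to Meis2. Itga6 (0.926), Aplnr (0.917) and Adgrl2 (0.912) followed Fli1 most closely. For Sox7 they included Cavin1 (0.903) and Rnf125 (0.891), and for Sox18 they were Dync1h1 (0.899), Rtl8a (0.896) and Ptp4a3 (0.894). Gata2 was nearest to Smarca2 (0.878), Cdk19 (0.877) and Dkk2 (0.854), Ets1 to Fbxw2 (0.871), Tcf4 (0.866) and Psmd12 (0.863). For Erg they were Cdkn2aipnl (0.879), Ampd3 (0.782) and Xab2 (0.768).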

How the data were processed

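The authors deposited raw UMI counts per gene and barcode from 10x 3' libraries of sorted cells, 1 matrix per library, not normalised. The software version, per the file headers, was 3.0.2 for run A and 5.0.0 for run B. Seurat 4.3.0 and build mm10 are named in the submitters' processing notes; no source used here gives the annotation. The 10 genes and all gene lists were chosen with earlier results of these data known. The feature lists (31053 and 32285 genes) were joined by identifier. Cells with at least 500 UMIs, 300 genes and at most 10% mitochondrial counts were kept (23970 of 27944 barcodes). Scrublet's own threshold marked 48 cells (0.2%), so the 857 cells (3.58%) with the highest scores were removed instead, at 0.8% per 1000 barcodes. Clustering used 2000 variable genes, without the factors, other endothelial transcription factors, mitochondrial and ribosomal genes, 30 principal components, a re-implementation of Harmony over runs, 20 neighbours and Leiden at resolution 1.0 (scanpy 1.11.5, leidenalg 0.10.2). A cluster took a class with at least 3 markers raised 1.5-fold or more and a mean log2 fold of at least 0.5; class names were rebuilt, so they can differ from the study's.

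UMI counts were summed per library and class and tested with edgeR 4.0.16 (quasi-likelihood, TMM, filterByExpr, all 8 libraries, 1 mean per group), with the run as a block, DESeq2 1.42.0, other scalings and left-out libraries as alternatives, in R 4.3.3. The steps were tested on simulated data. The labels describe the runs as a repeat of the whole experiment, and within a run, the groups' departures from their own means correlated (r across genes 0.501 to 0.627 in arterial-like, 0.246 to 0.315 in capillary-like, 0.543 to 0.678 in venous-like and 0.626 to 0.707 in lymphatic-like cells, 6 pairs of groups each). The run letters therefore pair the libraries. A class level needed at least 20 cells in a library. Named genes are the 10 factors, the 3 genes most like each, and up to 3 called genes of each other list with the smallest p in the fit with the block. 1 gene that this rule names is not reported here.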

Additional observations from a re-analysis of the deposited data

How the results depend on the processing

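With the filter on low counts and no block, no factor was called in any of the 20 comparisons. With the replicate block 1 factor, Meis2, was called in arterial-like cells for diet in mesentery, for tissue on chow and for tissue on high fat, and the count stayed at 1 for these 3 comparisons with RLE scaling or total counts in the same fit and at clustering resolution 2.0 with the block. DESeq2 with the block called 1 factor for each tissue comparison, as did edgeR without a filter or block; the cause was not tested. In fits of 1 cluster alone with the block, chosen after seeing the data, 1 factor was called for tissue on chow. Leaving out each library in turn, with or without the block, gave 0 to 2 factors for tissue on chow in arterial-like cells (Fli1 joined Meis2 without mesentery chow A), and 0 to 1 for the other 2 comparisons. Elsewhere the same fits gave 0 to 1: with the block, Sox18 was called without mesentery chow B in venous-like and lymphatic-like cells for diet in mesentery (-1.92 and -1.51) and tissue on chow (2.08 and 1.36), which leaves mesentery chow with run A only. Sox17 in venous-like cells was called for diet in mesentery without mesentery high fat A (1.29) or adipose high fat A (0.96). A group left with 1 library was assumed to vary like the others. The share of all genes called in these left-out fits is not given, so the factor counts have no background to be read against. The further calls in capillary-like and venous-like cells were Meis2. The block changed no other call of a factor. Meis2 kept its sign in 30 alternatives for each comparison, with ranges of -1.60 to -0.25, 1.52 to 2.80 and 1.11 to 2.86. Of 80 levels recomputed at resolution 2.0 or with called doublets kept, 79 moved by less than 1 SD; Mecom in lymphatic-like cells went to 6.54 CPM with doublets kept. With 2 pools per group and 28 to 136 capillary-like cells in run A, small changes were not detectable at this depth.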

Other observations

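Gata2 was also read outside the endothelium. In fibroblast-like cells it had 113 and 97.6 CPM in adipose chow libraries (19 and 18 UMIs) and 5.94 and 14.7 CPM in adipose high fat libraries (1 and 7 UMIs). The mesentery libraries gave 0.0 to 1.97 CPM, 2 UMIs in all. Both adipose chow libraries lay above the other 6. The class holds 2 clusters that split by tissue. Cluster 21 gave 68 of 76 and 147 of 182 fibroblast-like cells in mesentery chow. Cluster 17 gave 106 of 110 and 54 of 56 in adipose chow. Gata2 averaged 0.87 CPM in cluster 21 (3 libraries) and 40.3 CPM in cluster 17 (6 libraries). The part of this split in the tissue gap was not tested. The non-endothelial clusters without a class name had 109 and 95.2 CPM in adipose chow (98 and 43 UMIs) and 90.3 and 29.0 CPM in adipose high fat libraries (31 and 19 UMIs), so the diets were closer there in run A. These cells pool unlike clusters. Cluster 15 (Slc38a5, Osr2) gave 356 of 362 cells in adipose chow A and 34 of 173 in adipose high fat B, where cluster 22 (Clec9a, Xcr1) gave 92. Gata2 was 94.1 to 160 CPM in cluster 15 over 4 libraries and averaged 2.58 CPM in cluster 22 over 3. The part of this mix in the diet values was not tested. No test was run in these cells.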
